A study of Mus musculus with 10 samples.

Results

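The 7 genes described here encode transcription factors that mark the ventral interneurons of the embryonic spinal cord: *Evx1* and *Evx2* for V0, *En1* for V1, *Vsx1* for newborn V2, *Gata2* and *Gata3* for V2b, and *Sim1* for V3 interneurons. They were chosen by name from this classification, with earlier results of these data known. All 7 were found by their Ensembl identifiers among the 54146 genes of the deposited count table. RNA was sequenced from the lumbar spinal cord of 10 mouse embryos at E12.5, with the dorsal root ganglia left on. Litter 1 held 3 controls (embryos 4, 5 and 9) and 3 *Dot1l*-cKO embryos (2, 3 and 7), and litter 2 held 2 controls (embryos 5 and 7) and 2 *Dot1l*-cKO embryos (4 and 6). All embryos came from the line B6.Cg-E2f1Tg(Wnt1-cre)2Sor/J. The *Dot1l*-cKO embryos were Wnt1cre2/+; Dot1l fl/fl, and the controls carried no Cre and were Dot1l fl/fl in litter 1 and Dot1l fl/+ in litter 2, so that every control also carried at least 1 floxed allele. Wnt1-cre acts mainly in the dorsal neural tube and in neural crest, whereas the V0 to V3 classes are born ventral to its main domain. The authors also saw scattered signal of a Cre reporter in ventral cells, and concluded that ventral populations might be affected too.

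During neurogenesis, graded Sonic hedgehog from the floor plate divides the ventral ventricular zone into progenitor domains p0 to p3, each with its own set of homeodomain proteins. The p0 domain, marked by *Dbx1*, gives V0 neurons, of which the ventral subset expresses the homeobox genes *Evx1* and *Evx2*. The p1 domain gives V1 inhibitory neurons with *En1*, and p2 cells, which pass through *Foxn4* and *Vsx1*, are split by Notch signalling into excitatory V2a neurons and inhibitory V2b neurons with *Gata2*, *Gata3* and *Tal1*. The p3 domain, marked by *Nkx2-2*, gives excitatory V3 neurons with *Sim1*, a bHLH-PAS factor.

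On GRCm38, the build of the authors' alignment, *Evx1* (ENSMUSG00000005503) lies at chr6:52313498-52318378 on the plus strand and *Evx2* (ENSMUSG00000001815) at chr2:74652991-74659557 on the minus strand, beside the Hoxa and Hoxd clusters, respectively. *En1* (ENSMUSG00000058665) lies at chr1:120602418-120607992 on the plus strand, *Vsx1* (ENSMUSG00000033080) at chr2:150680702-150689360 on the minus strand and *Gata2* (ENSMUSG00000015053) at chr6:88193891-88207032 on the plus strand. *Gata3* (ENSMUSG00000015619) lies at chr2:9857078-9890034 on the minus strand and *Sim1* (ENSMUSG00000019913) at chr10:50894754-50989152 on the plus strand. The transgene is named for its place at *E2f1* on chromosome 2, and the gap to *E2f1* was 3.87 megabases for *Vsx1*, 79.9 for *Evx2* and 144.67 for *Gata3*. A genotype difference of *Vsx1* and one of the chromosome that carries the transgene cannot be told apart.

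The sequences before the start sites of 4 members are shown because these genes differ in how they behaved between litters, *Evx2* being the member whose litter difference did not pass the test. They are taken from RefSeq (GRCm38.p6), run 5′ to 3′ on the strand of the gene, and end before the first base that GENCODE gives to the gene. Capitals mark CCAAT boxes, written on the printed strand or as their reverse complement ATTGG. The *Evx1* stretch is chr6:52313248-52313497 (plus), the *Evx2* stretch chr2:74659558-74659807 (minus), the *En1* stretch chr1:120602237-120602417 (plus) and the *Gata2* stretch chr6:88193641-88193890 (plus).
Evx1: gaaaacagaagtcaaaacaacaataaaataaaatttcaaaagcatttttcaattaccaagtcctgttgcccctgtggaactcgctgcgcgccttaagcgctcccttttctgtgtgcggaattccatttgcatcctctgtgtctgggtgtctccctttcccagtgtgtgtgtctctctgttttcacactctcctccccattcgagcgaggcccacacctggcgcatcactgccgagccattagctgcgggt
Evx2: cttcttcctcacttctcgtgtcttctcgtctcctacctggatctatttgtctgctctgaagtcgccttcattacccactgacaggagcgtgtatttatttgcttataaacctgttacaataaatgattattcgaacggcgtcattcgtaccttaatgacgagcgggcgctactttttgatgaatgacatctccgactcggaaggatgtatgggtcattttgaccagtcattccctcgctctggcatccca
En1: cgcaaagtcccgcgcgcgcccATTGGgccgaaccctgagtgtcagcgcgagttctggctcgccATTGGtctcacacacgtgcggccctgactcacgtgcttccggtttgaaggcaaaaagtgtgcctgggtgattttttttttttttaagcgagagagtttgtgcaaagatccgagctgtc
Gata2: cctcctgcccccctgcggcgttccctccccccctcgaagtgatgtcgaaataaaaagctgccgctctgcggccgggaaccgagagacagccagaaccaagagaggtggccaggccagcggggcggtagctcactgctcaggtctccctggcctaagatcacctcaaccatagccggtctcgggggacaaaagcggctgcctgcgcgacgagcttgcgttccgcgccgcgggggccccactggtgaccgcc

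RefSeq start sites were found for all 7 members, with a second one for *Gata2*, and the 250 bases before each were searched on both strands for 4 short motifs, each counted on its own. The E-box CAGCTG, a bHLH site held by 13.0% of the 32851 windows of this length, was present in 1 member, *Vsx1*, where it began 79 and 44 bases before the start (positions -79 and -44). The GATA site AGATAA (9.99% of windows) and the homeodomain site TAATTA (4.84%) were in 0 of the members' 8 windows. CCAAT (33.8%) was in 2 members, at -229 and -187 of *En1* and at -83 and -45 of the second *Gata2* start. These are matches of letters in a short window, and binding was not measured.

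Total counts lay between 40949585 and 68928443 per embryo, and single members had between 12 (*Vsx1*) and 672 counts (*En1*) in an embryo. Levels are given in CPM, read counts of a gene divided by the TMM-scaled size of the library. As a check of the labels, *Dot1l* counted over the whole gene was at 87.6, 94.3 and 107 CPM in litter 1 controls, 97.8, 110 and 101 in litter 1 *Dot1l*-cKO, 91.0 and 89.8 in litter 2 controls and 112 and 107 in litter 2 *Dot1l*-cKO embryos (log2 difference 0.17, SE 0.06, adjusted p = 0.130, edgeR's quasi-likelihood test). The targeted gene was thus not lower in the embryos labelled *Dot1l*-cKO, and reads over its deleted part were not analysed here, so the genotypes rest on the labels. Summed Y-linked genes reached 156 to 172 CPM in both *Dot1l*-cKO embryos of litter 2 and at most 1.16 CPM in the other 8 embryos, so that within litter 2 sex and genotype cannot be told apart. The tissue carried its neuronal markers in every embryo (*Tubb3* at 1720 CPM or more), and marker lists of other cells are given beside the results they move with.

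Compared per exon length, as RPKM, *En1* was the highest of the members at 2.76 ± 0.965 RPKM (SD, n = 10 embryos), with a range of 1.85 to 4.26. *Gata3* (1.66 ± 0.382 RPKM), *Evx2* (1.64 ± 0.201), *Gata2* (1.48 ± 0.333) and *Evx1* (1.47 ± 0.315) followed and lay within each other's spread. Their order was not the same in the litters, *Evx2* having the highest mean of these 4 in litter 1 (1.61 RPKM, *Gata3* 1.40) and the lowest in litter 2 (1.69 RPKM, *Gata3* 2.05). *Sim1* was at 0.969 ± 0.269 RPKM. *Vsx1*, which V2 cells express only briefly, was at 0.167 ± 0.0726 RPKM, and its highest embryo (0.293) was below the lowest of *Sim1* (0.672). In bulk RNA, fewer cells of a class and less RNA per cell cannot be told apart.

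The first comparison asked whether loss of *Dot1l* in the Wnt1-cre domain went with other levels of these ventral factors. With the litter in the model, 0 of the 7 members passed an adjusted p of 0.05 (1 at an unadjusted p under 0.05, *Sim1*), where 2.99% of the 19773 genes tested passed and 4290 were at an unadjusted p under 0.05. DESeq2 and limma-voom also called 0. The log2 difference, *Dot1l*-cKO minus control, was positive for 6 members and negative for *Sim1*, with a median of 0.17 against -0.01 over all genes tested. No member separated all 5 *Dot1l*-cKO from all 5 control embryos (1.93% of genes did). The plot of levels by embryo shows the 4 groups of each gene.

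**Figure D1:**
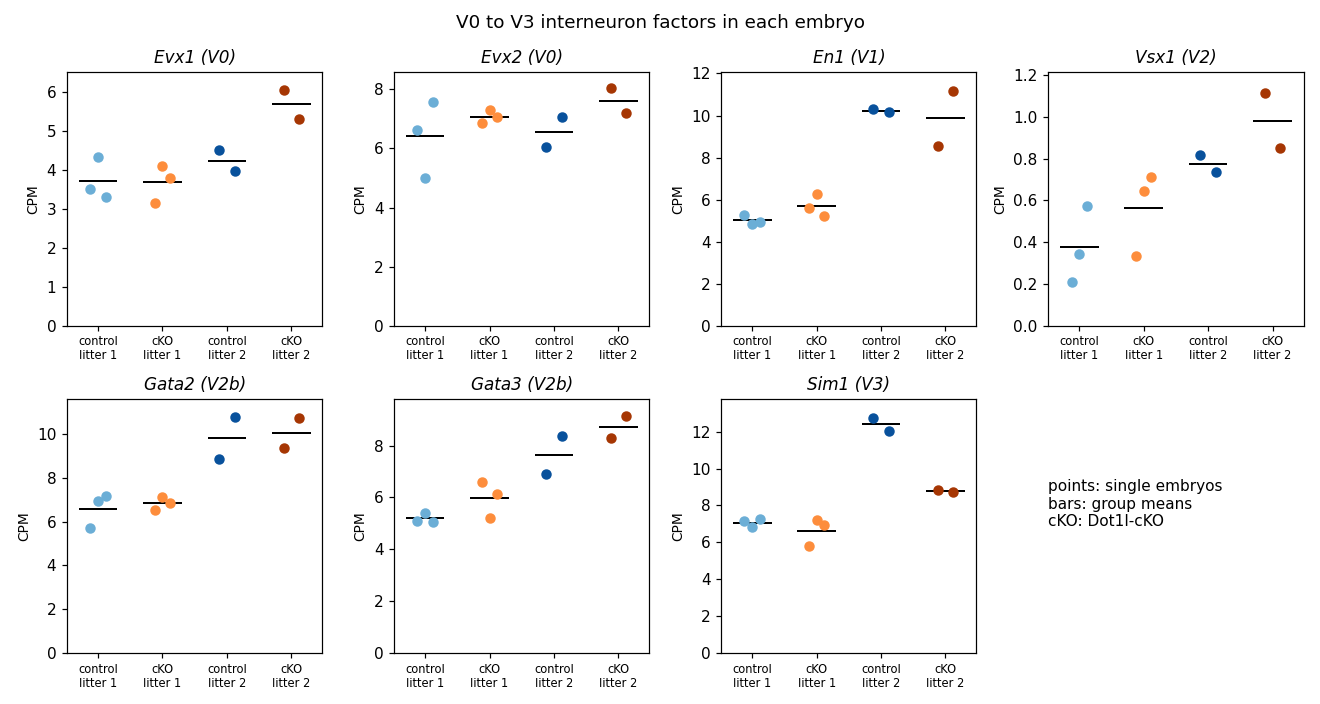
Level of each V0 to V3 factor (CPM, linear axis from 0) in single embryos (points) of the 4 groups, with bars at the group means. In *En1*, *Vsx1*, *Gata2*, *Gata3* and *Sim1* all litter 2 embryos (darker colours) lie above all litter 1 embryos, and in *Sim1* the litter 2 *Dot1l*-cKO embryos (8.75 and 8.86 CPM) lie below their control littermates (12.0 and 12.8 CPM).

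*Evx1*, of V0 neurons, was at 3.53, 4.34 and 3.32 CPM in controls and 3.16, 4.12 and 3.81 CPM in *Dot1l*-cKO embryos of litter 1, and at 4.52 and 3.97 CPM in controls and 6.07 and 5.33 CPM in *Dot1l*-cKO embryos of litter 2. The genotypes overlapped in litter 1, and in litter 2 both *Dot1l*-cKO embryos were higher. Over both litters the log2 difference was 0.17 (SE 0.13, 95% interval -0.11 to 0.44, adjusted p = 0.482, edgeR). An antisense gene, *Evx1os*, shares 73 exon bases with *Evx1* and had 219 to 580 counts, and with a library kit that does not mark strand, reads in these bases cannot be assigned. Its partner *Evx2* was at 6.64, 5.00 and 7.58 CPM in controls and 6.87, 7.28 and 7.08 CPM in *Dot1l*-cKO embryos of litter 1, and at 6.05 and 7.06 CPM in controls and 8.03 and 7.19 CPM in *Dot1l*-cKO embryos of litter 2. The highest and lowest embryos of litter 1 were both controls. The log2 difference of *Evx2* was 0.17 (SE 0.11, 95% interval -0.06 to 0.40, adjusted p = 0.384, edgeR).

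*En1*, the engrailed homeobox gene of V1 neurons, was at 5.25, 4.84 and 4.96 CPM in controls and 5.59, 6.28 and 5.22 CPM in *Dot1l*-cKO embryos of litter 1. In litter 2 it was at 10.3 and 10.1 CPM in controls and 8.56 and 11.2 CPM in *Dot1l*-cKO embryos. The genotypes overlapped in both litters, and the litters did not overlap. The log2 genotype difference was 0.09 (SE 0.10, 95% interval -0.12 to 0.29, adjusted p = 0.655, edgeR), an interval that holds a fold between 0.918 and 1.23.

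In the V2 lineage, *Vsx1* was at 0.211, 0.344 and 0.573 CPM in controls and 0.333, 0.644 and 0.713 CPM in *Dot1l*-cKO embryos of litter 1, and at 0.816 and 0.734 CPM in controls and 1.11 and 0.849 CPM in *Dot1l*-cKO embryos of litter 2. These levels rest on 12 to 63 counts, and the log2 difference of 0.47 had the widest interval of the members (SE 0.28, -0.14 to 1.08, adjusted p = 0.362, edgeR). *Gata2*, which acts before *Gata3* in V2b neurons, was at 5.69, 6.93 and 7.15 CPM in controls and 6.51, 7.14 and 6.83 CPM in *Dot1l*-cKO embryos of litter 1, and at 8.84 and 10.8 CPM in controls and 9.34 and 10.7 CPM in *Dot1l*-cKO embryos of litter 2. Within each litter the genotypes lay over each other. The log2 difference of *Gata2* was 0.04 (SE 0.09, 95% interval -0.15 to 0.24, adjusted p = 0.821, edgeR).

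*Gata3* was at 5.09, 5.42 and 5.06 CPM in controls and 6.61, 5.19 and 6.12 CPM in *Dot1l*-cKO embryos of litter 1, and at 6.89 and 8.37 CPM in controls and 8.30 and 9.12 CPM in *Dot1l*-cKO embryos of litter 2. In each litter the highest embryo was a *Dot1l*-cKO and the lowest a control, with overlap between. Its log2 difference was 0.20 (SE 0.09, adjusted p = 0.231, edgeR) with a 95% interval of -0.00015 to 0.40. Other genes that share exon bases with *Gata3* had at most 14 counts in an embryo.

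*Sim1*, of V3 neurons, was the member with a negative difference. It was at 7.15, 6.81 and 7.26 CPM in controls and 5.79, 7.19 and 6.92 CPM in *Dot1l*-cKO embryos of litter 1, and at 12.8 and 12.0 CPM in controls and 8.86 and 8.75 CPM in *Dot1l*-cKO embryos of litter 2. The genotypes overlapped in litter 1 and were far apart in litter 2. Over both litters the log2 difference was -0.26 (SE 0.10, 95% interval -0.46 to -0.05), which did not pass after adjustment over all genes (adjusted p = 0.140, edgeR).

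Leaving out single embryos moved several of these genotype differences by more than 1.5 times, and none passed in any of those fits. *Evx1* was at 0.26 without control 5 of litter 1, 0.10 without *Dot1l*-cKO embryo 4 of litter 2 and 0.0997 without control 7 of litter 2. *Evx2* was at 0.0966 without control 5 of litter 1. *En1* was at 0.0338 without *Dot1l*-cKO embryo 3 of litter 1, 0.0467 without *Dot1l*-cKO embryo 6 and 0.17 without *Dot1l*-cKO embryo 4 of litter 2, and *Vsx1* was at 0.31 without control 4 of litter 1. *Gata2* ranged from -0.0046 without control 4 of litter 1 to 0.0948 without control 7 of litter 2. Those of *Gata3* (0.16 to 0.25) and *Sim1* (-0.31 to -0.20) moved less.

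The same comparison was made within each litter, with the spread shared over the 4 groups. In litter 1, 0 of 7 members passed (0 at an unadjusted p under 0.05, and 0 by DESeq2), where 0.597% of the 20446 genes tested did, and in 0 members were the genotypes free of overlap (18.6% of genes). *Sim1* differed by -0.09 (95% interval -0.32 to 0.13) and *Evx1* by -0.01 (-0.33 to 0.32) on the log2 scale, and the largest value was 0.57 for *Vsx1* (-0.26 to 1.41). That of *Sim1* was -0.00020 without *Dot1l*-cKO embryo 2 and -0.15 without *Dot1l*-cKO embryo 3. That of *Vsx1* was 0.28 without control embryo 4, 0.36 without *Dot1l*-cKO embryo 7 and 1.046 without control embryo 9.

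In litter 2, 0 of 7 passed in edgeR (2 at an unadjusted p under 0.05), beside 0.254% of genes, and 3432 of the 20446 genes were at an unadjusted p under 0.05. There the log2 difference of *Sim1* was -0.49 (SE 0.13, 95% interval -0.77 to -0.22, adjusted p = 0.126, edgeR). With DESeq2 (log2 difference -0.49, adjusted p = 0.0272) and with litter 2 fitted alone in edgeR (-0.49, adjusted p = 0.0346) *Sim1* passed. Those 2 fits called 548 and 964 of all genes, where the main fit called 52. *Evx1* differed by 0.42 (SE 0.18, 95% interval 0.03 to 0.81, adjusted p = 0.264, edgeR). Both *Dot1l*-cKO embryos of litter 2 were above both controls in 3 members, *Evx1*, *Evx2* and *Vsx1*, and below them in 1, *Sim1*, orders that 24.2% and 27.5% of genes show with 2 embryos a group. Of the 3 V3 companions 0 passed in litter 2, with 2 differences positive and 1 negative. Their sums were 21.7 to 30.3 CPM in controls and 36.4 to 39.0 CPM in *Dot1l*-cKO embryos. Markers of other cells moved in litter 2 beside *Sim1*. Of the dorsal interneuron markers 2 of 9 passed, with sums of 179 to 200 CPM in controls and 238 to 252 CPM in *Dot1l*-cKO embryos. Of the erythroid markers 1 of 6 passed (993 to 1074 CPM and 1197 to 1488 CPM), and of the dorsal root ganglion sensory markers 1 of 8 (425 to 428 CPM and 492 to 556 CPM). All 4 genes were higher in *Dot1l*-cKO, and their part in the differences of *Sim1* and *Evx1* was not tested. In this litter the Cre, the second floxed allele and the high level of Y-linked RNA were found together in the *Dot1l*-cKO embryos, and they cannot be told apart.

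The difference between the litters in the genotype effect was tested as an interaction. It was -0.40 for *Sim1* (SE 0.16, 95% interval -0.76 to -0.05, adjusted p = 0.580, edgeR) and 0.43 for *Evx1* (SE 0.24, -0.08 to 0.94, adjusted p = 0.657). None of the 7 members passed (1 at an unadjusted p under 0.05, and 0 by DESeq2), and 0.00978% of all genes did. A difference between litters in the response of *Sim1* was thus not shown by edgeR at this number of embryos.

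**Figure D2:**
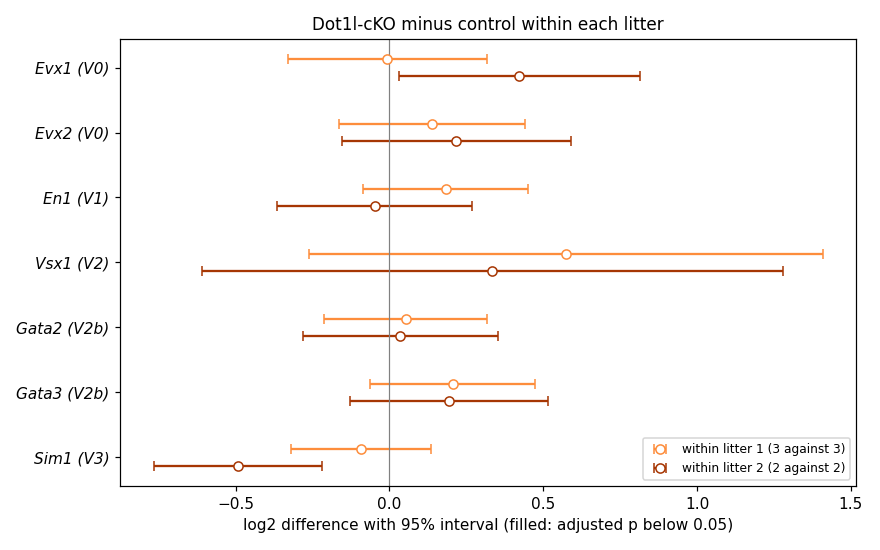
Log2 difference between *Dot1l*-cKO and control within litter 1 (light, 3 against 3 embryos) and litter 2 (dark, 2 against 2), with 95% intervals from edgeR. All points are open, meaning an adjusted p of 0.05 or more, and only *Sim1* (-0.77 to -0.22) and *Evx1* (0.03 to 0.81) in litter 2 have intervals that leave out 0.

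Between the litters, in contrast, most of the group moved. With the genotype in the model, 6 of the 7 members were higher in litter 2 and 0 were lower, where 16.9% of genes were higher and 17.8% lower. The median log2 difference of the members, litter 2 minus litter 1, was 0.56, against -0.02 over all genes tested. For 5 members, *En1*, *Vsx1*, *Gata2*, *Gata3* and *Sim1*, all 4 embryos of litter 2 were above all 6 of litter 1, an order held by 11.9% of genes. DESeq2 and limma-voom each called 6 members too.

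*En1* was 1.88 times as high in litter 2 (95% interval 1.62 to 2.17, log2 difference 0.91, SE 0.10, adjusted p = 1.05e-05, edgeR), rising from 4.84 to 6.28 CPM in litter 1 to 8.56 to 11.2 CPM in litter 2. The summed level of the 7 members was 33.5 to 37.9 CPM in litter 1 and 50.2 to 53.1 CPM in litter 2. *Vsx1* was 1.87 times as high (1.23 to 2.84, adjusted p = 0.0231). *Sim1* was 1.53 times as high (1.32 to 1.76, adjusted p = 2.47e-04), and both V2b factors rose by like amounts, *Gata2* 1.48 times (1.29 to 1.70, adjusted p = 3.48e-04) and *Gata3* 1.46 times (1.27 to 1.68, adjusted p = 4.69e-04). In this fit the V0 factors had the smallest differences, an order that did not hold for *Evx1* among the *Dot1l*-cKO embryos or without control 7 of litter 2 (0.499, *Gata3* 0.495). *Evx1* was 1.34 times as high in litter 2 (1.10 to 1.62, adjusted p = 0.0208), and *Evx2* differed by 0.07 on the log2 scale (SE 0.11, 95% interval -0.17 to 0.30, adjusted p = 0.683).

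**Figure D3:**
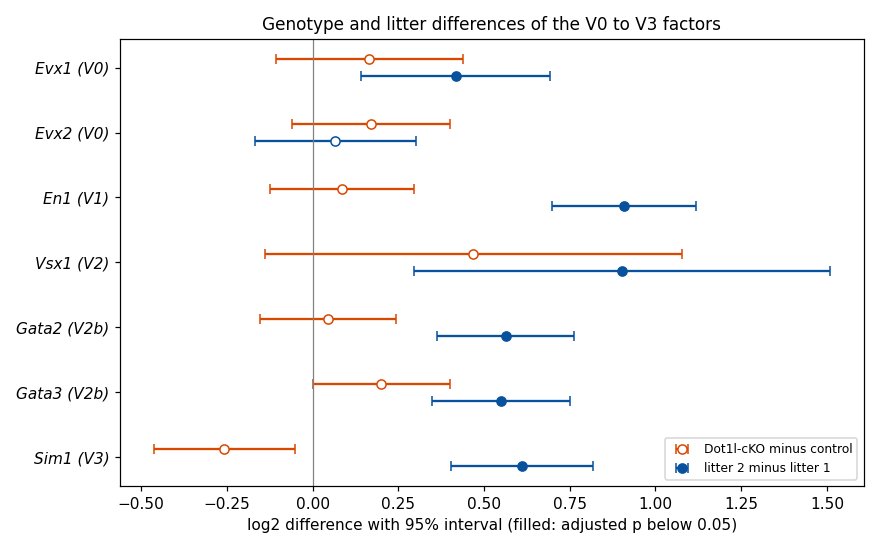
Log2 differences of the members with 95% intervals (edgeR), *Dot1l*-cKO minus control with the litter in the model (orange) and litter 2 minus litter 1 with the genotype in the model (blue); filled points have an adjusted p below 0.05. The genotype points lie between -0.26 and 0.47 and are all open, and the litter points lie between 0.07 and 0.91 with 6 of 7 filled.

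The litter difference was also read within each genotype, since the litter 2 controls had fewer floxed alleles and the litter 2 *Dot1l*-cKO embryos carried Y-linked RNA. Among controls, *En1* (log2 difference 1.03), *Sim1* (0.81), *Gata2* (0.57) and *Gata3* (0.56) passed, 4 of 7 beside 11.5% of genes, while *Vsx1* (1.03, 95% interval 0.11 to 1.95, adjusted p = 0.101), *Evx1* (0.19, adjusted p = 0.454) and *Evx2* (0.03, adjusted p = 0.933) did not in edgeR. Among *Dot1l*-cKO embryos 5 of 7 passed, beside 9.65% of genes: *En1* (0.80), *Evx1* (0.62), *Gata2* (0.56), *Gata3* (0.54) and *Sim1* (0.41). *En1*, *Gata2*, *Gata3* and *Sim1* thus passed in both genotypes. Fitted on the *Dot1l*-cKO embryos alone, *Sim1* no longer passed (0.41, adjusted p = 0.0603, edgeR), an alternative added after the data had been seen.

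Some of these calls rested on single embryos. Without *Dot1l*-cKO embryo 4 of litter 2 the litter difference of *Evx1* was 0.33 (adjusted p = 0.0947, edgeR) and that of *Vsx1* 0.85 (adjusted p = 0.0729), without *Dot1l*-cKO embryo 6 of litter 2 that of *Evx1* was 0.41 (adjusted p = 0.0554), and without control embryo 5 of litter 2 that of *Vsx1* was 0.84 (adjusted p = 0.0638). That of *Evx2*, which did not pass in any of these fits, ran from 0.0037 without control embryo 5 of litter 1 to 0.13 without control embryo 9 of litter 1. *En1*, *Gata2*, *Gata3* and *Sim1* passed whichever single embryo was left out.

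Other genes of the same lineages were read from lists of class companions, domain progenitor factors and the Notch genes of the V2a and V2b choice, 40 genes tested in all. For the genotype, 0 of the 40 passed in edgeR (12 at an unadjusted p under 0.05, beside 4290 of all 19773 genes), 0 in limma-voom and 2 in DESeq2, which called 1492 of all genes. *Lhx4* of V2a neurons was among the 2, and the median log2 difference of the companions was 0.08. Among the genes with the smallest p of their list in edgeR were *Pax2* of the V0 list (0.29, adjusted p = 0.137), *Lhx4* (-0.30, adjusted p = 0.0797) and *Bhlhe22* among V2b and V2c companions (0.18, adjusted p = 0.264). For V3 it was *Uncx* (0.56, adjusted p = 0.0878), for the progenitor factors *Prdm12* of the p1 domain (-0.44, adjusted p = 0.0618) and for the Notch genes the fringe *Mfng* (-0.20, adjusted p = 0.206). *Prdm12*, which dorsal root ganglion neurons also express, was the only companion to pass within litter 1, where it was lower in *Dot1l*-cKO. In litter 2 the genotypes overlapped in *Prdm12*. Lower beside it in litter 1 were 4 of 8 dorsal root ganglion sensory markers, whose part in its difference was not tested.

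Between the litters, 25 of the 40 companions were higher in litter 2 and 2 were lower, beside 16.9% and 17.8% of all genes, with a median log2 difference of 0.37 against -0.02. Of the V0 companions 2 of 4 rose, *Lhx1* (0.44) and *Lhx5* (0.30), LIM factors that V1 and dorsal neurons share. Of the V1 companions 3 of 6 rose, *Sp8* (0.58), *Otp* (0.46) and *Foxp2* (0.34). *Foxd3* (0.27) did not pass. Of the V2a companions 5 of 6 rose, among them *Lhx3* (0.61), *Lhx4* (0.58), *Sox21* (0.56) and *Shox2* (0.29). Of the V2b and V2c companions 2 of 5 rose, *Tal1* (0.54), the partner of the GATA factors, and *Sox1* of V2c (0.33), while the cofactors *Lmo4* (-0.08) and *Ldb1* (0.03) did not pass. Of the V3 companions *Neurog3* rose (0.85), and *Nkx2-2* (0.01) and *Uncx* (0.27) did not pass.

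Upstream of the neurons, 10 of the 11 listed progenitor factors could be tested, and 7 rose in litter 2. *Foxn4*, which acts in p2 cells before *Vsx1*, was higher by 1.01 on the log2 scale (SE 0.20, adjusted p = 0.00132, edgeR), *Dbx1* of p0 by 0.64 and *Pax6*, expressed in all but the most ventral progenitors, by 0.64. *Nkx6-2*, *Irx5*, *Irx3* and *Nkx6-1* rose by 0.71, 0.62, 0.59 and 0.21. *Prdm12* was lower (-0.45). It was lower by 0.84 among controls, while among *Dot1l*-cKO embryos the litters overlapped and it did not pass. Of the 6 Notch genes 5 rose, among them the ligand *Dll1* (0.80, adjusted p = 7.19e-06, edgeR), *Notch1* (0.67), *Mfng* (0.53) and *Lfng* (0.51). The ligand *Dll4*, which endothelial cells also express, was lower (-0.37). Its difference was -0.70 among controls, while among *Dot1l*-cKO embryos the litters overlapped and it did not pass.

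**Figure D4:**
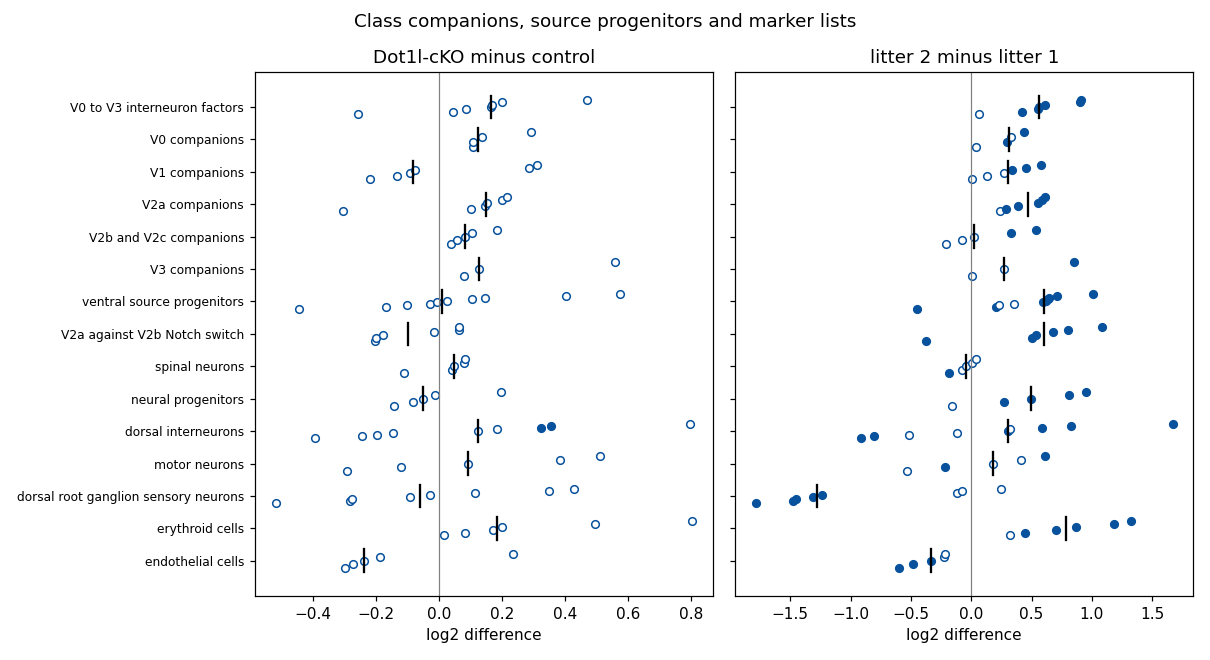
Log2 differences of single genes (points; filled, adjusted p below 0.05) in the members, the companion lists and marker lists, with bars at the list medians, for the genotype (left) and the litter (right; the axes differ). On the left the filled points are 2 dorsal interneuron genes, and on the right the medians of the members (0.56), the progenitor factors (0.61), the Notch genes (0.60) and neural progenitors (0.49) lie to the right of 0 while that of dorsal root ganglion neurons is at -1.27.

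Marker lists of other cells were read between the litters in the same way, where 16.9% of all genes were higher in litter 2 and 17.8% lower. General neural progenitor markers were higher in litter 2 in 4 of 5 genes (*Sox2*, *Nes*, *Vim* and *Hes5*), with summed levels of 2275 to 2627 CPM in litter 1 and 3088 to 3269 CPM in litter 2. Markers shared by spinal neurons were at 5381 to 5877 CPM in litter 1 and 5299 to 5677 CPM in litter 2, with 1 of 5 lower, *Stmn2* (-0.18). Of the motor neuron markers 1 of 5 was higher and 1 lower, near the shares of all genes. Of the dorsal interneuron markers 4 of 9 were higher and 2 lower. Dorsal root ganglion sensory markers were lower in litter 2 in 5 of 8 genes, with summed levels of 633 to 948 CPM in litter 1 and 425 to 556 CPM in litter 2.

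*Gata2*, *Gata3* and *Tal1* are also used by blood cells and *Gata2* by endothelium, so the markers of those cells are given as well. Erythroid markers were higher in litter 2 in 5 of 6 genes, with sums of 615 to 720 CPM in litter 1 and 993 to 1488 CPM in litter 2. *Gata1*, which defines the erythroid lineage, lay between 0.138 and 0.772 CPM in litter 1 and between 0.796 and 1.02 CPM in litter 2, without overlap (log2 difference 1.18, adjusted p = 0.0156, edgeR). Endothelial markers were lower in 3 of 5 genes and higher in 0, with sums of 214 to 308 CPM in litter 1 and 174 to 232 CPM in litter 2. Of sympathetic markers 2 of 4 were higher and 1 lower, of muscle and mesenchyme markers 2 of 7 were higher, and of microglia markers 0 of 4 passed. Over all genes 16.9% were higher in litter 2 and 17.8% lower. The part of these cells in the litter difference of the members was not tested. By genotype, the marker genes that passed were 2 of 9 dorsal interneuron markers and the 4 Y-linked genes, all higher in *Dot1l*-cKO.

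The variation from embryo to embryo was read after the litter means were taken off, with the genotype differences left in. Pearson's r of log2 CPM between members over the 10 embryos, which share libraries and litters, lay between -0.74 (*Gata3* and *Sim1*, whose genotype differences had opposite signs) and 0.50 (*Vsx1* and *Gata2*), and it was 0.35 for the V2b pair *Gata2* and *Gata3* and -0.07 for *Evx1* and *Evx2*. The genes most like each member by the same measure among 13503 genes (13504 for *Vsx1*) were *Prrg2* (0.94), *Rflnb* (0.93) and *Zfp879* (0.93) for *Evx1*, *9130019O22Rik* (0.92), *Disc1* (0.90) and *Yars2* (0.89) for *Evx2*, and *Zfp46* (0.93), *Zfp189* (0.93) and *Ptchd1* (0.91) for *En1*. For *Vsx1* they were *Tmem44* (0.91), *Ccdc9b* (0.91) and *Robo3* (0.90), the last a guidance receptor of commissural neurons. For *Gata2* they were *Mnx1* (0.93), a motor neuron factor, *Lrrc59* (0.92) and *Mgmt* (0.91), for *Gata3* *Wdr13* (0.98), *Smim1* (0.96) and *Bcl2l1* (0.95), and for *Sim1* *Zbtb48* (0.97), *Casp8ap2* (0.97) and *Nbn* (0.96). With 10 embryos and this many genes, such values are a description of these libraries.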

How the data were processed

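Polyadenylated RNA of single lumbar spinal cords was sequenced after a library preparation with a kit that does not mark the strand. The authors trimmed the reads with TrimGalore, aligned them to mm10 with STAR and deposited raw counts per gene from featureCounts in the snakePipes workflow, whose strand setting is not given in the sources used here. Symbols, positions and exon lengths were taken from GENCODE M21 (GRCm38) for 54079 of the 54146 identifiers.

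Counts were analysed in R 4.3.3 with edgeR 4.0.16 (quasi-likelihood test, TMM, the default expression filter with a minimum count of 10) and Benjamini-Hochberg adjustment over all genes at 0.05. Genotype and litter were fitted together (19773 genes), and differences within a litter or genotype and the interaction came from a fit of 4 group means (20446 genes). Intervals are 95% intervals of the fitted difference. DESeq2 1.42.0 and limma 3.58.1 served as alternatives. RPKM divides CPM by exon length. Marker and companion genes came from lists. Named by rule were all members and, of each companion list, genes that passed by genotype or else the gene of smallest p. The rule also named the 3 genes of mean log2 CPM of at least 1 most correlated with each member. Other listed genes were named for their litter results or as markers, outside this rule. A few listed genes are not reported by name. The members and lists were chosen with earlier results of these data known. On simulated counts for 19773 genes, 75% of 200 genes changed by 0.8 log2 in the genotype comparison were recovered, and 6.25% of calls were false. The simulation held no litter effect, and no member had a genotype difference above 0.47 with the litter in the model. Recovery of changes of that size was not tested. Each of 20 pairs of embryos of a genotype lay further apart than counting error allows (9.30 to 85.9 as chi-square per gene) and each embryo was 1 replicate. Embryo numbers only name samples.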

Additional observations from a re-analysis of the deposited data

How the results depend on the processing

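The genotype result of the members, 0 of 7 called, held under all 18 alternatives, among them other normalizations, filters, tools and each embryo left out, with the lowest adjusted p 0.0862 for *Sim1*. The number of all genes called by genotype was 591 and went to 2201 without the expression filter, 1492 with DESeq2, 0 without the litter in the model, and 53 to 1377 when single embryos were left out. Within litter 1 it was 122 and went to 636 with DESeq2, 1397 without the filter, 12 with litter 1 fitted alone and 2 to 644 without single embryos. Within litter 2 it was 52 and went to 548 with DESeq2, 1335 without the filter, 964 with litter 2 fitted alone and 7 to 285 without single embryos. For the interaction it was 2 and went to 92 with DESeq2, 437 without the filter and 1 to 95 without single embryos. Within litter 2, 1 member was called with DESeq2 and 1 with litter 2 alone, *Sim1* in each. For the litter, 6858 genes were called, and 3661 in the *Dot1l*-cKO embryos alone. In the controls alone 4 members were called, and in the *Dot1l*-cKO embryos alone 4. Both fits have fewer samples, and the log2 difference of *Evx1* went from 0.42 to 0.20 in the controls alone. The cause of these changes was not tested.

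Some differences near 0 changed sign when single embryos were left out. These were *Gata2* by genotype (-0.0046 to 0.0948), *Evx1* (-0.0886 to 0.11), *Evx2* (-0.0034 to 0.28) and *Gata2* (-0.0404 to 0.12) within litter 1, *En1* (-0.25 to 0.14) and *Gata2* (-0.10 to 0.19) within litter 2, and the interactions of *Evx2* (-0.0560 to 0.22), *Gata2* (-0.15 to 0.13), *Gata3* (-0.15 to 0.14) and *Vsx1* (-0.71 to 0.0555). None of these passed in any of those fits. The litter calls of *En1*, *Gata2* and *Gata3* held under all 20 alternatives, that of *Sim1* under 19, that of *Evx1* under 17 and that of *Vsx1* under 16. The fewest counts of the members were those of *Vsx1*, 12 to 63 per embryo, and the effect of depth on its values was not tested.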
